A study of Arabidopsis thaliana with 4 samples.

Results

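The seedling transcriptomes of 2 Arabidopsis thaliana mutants, rps2a2b and atprmt3, were set directly against each other, without passing through the wild type. Both libraries with these genotype labels were taken, 2 of the 4 libraries of the series, and the remaining 2 libraries of Col, the wild type, serve only to show where the mutants lie. The seedlings of all groups were 12 days old, were grown on MS medium with 1% sucrose at 22 °C in cycles of 16 h light and 8 h dark, and were harvested whole. The sample titles carry the names rps2a2b-1 and atprmt3-2. The labels give no locus, type of lesion or parental line. Each mutant is represented by 1 library, so every difference below is one between 2 libraries and has no replicate check and no p-value.

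The protein RPS2 sits in the small ribosomal subunit, near the entrance through which messenger RNA is threaded, and PRMT3 is a protein arginine methyltransferase. In yeast and mammals PRMT3 binds and methylates RPS2, which places enzyme and substrate in one step of ribosome production. The direct contrast asks which processes separate a seedling named for loss of the ribosomal protein from one named for loss of the methyltransferase.

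Reads assigned to genes numbered 15194770 in rps2a2b and 18650053 in atprmt3, against 15646735 and 15637192 in Col. Of 33341 genes, 15417 had a mean of at least 5 CPM (counts per 1e+06 reads on genes, scaled by TMM) over the mutant libraries and are called measured. Of these, 201 were at least 2-fold higher in rps2a2b than in atprmt3 (1.3%) and 113 were at least 2-fold lower (0.733%), together 2.04%. Scaling by total counts gave 254 higher and 89 lower, so the share of higher genes among both was 64.0% as reported and 74.1% with that scaling. The median log2 ratio of rps2a2b to atprmt3 over all measured genes was -0.0071, with 49.0% above 0 and 51.0% below. No gene was 2-fold apart between the Col libraries (0.0% of 15048), which differed by no more than read sampling and count as 1 sample. The share of genes 2-fold apart between the mutants was 6.35% at 5 to 10 CPM and 0.279% at 200 CPM or more, so the higher a gene's level, the rarer such a gap. Values after ± are read-sampling standard errors of the log2 ratio, widened to the excess spread seen in low-count genes (6.01 times the sampling variance). That excess was measured between the mutant libraries, so it mixes real differences with any variation between plants. With 1 library per mutant these cannot be told apart. The excess was larger in genes with more counts, at 11.6 times the sampling variance in the highest count range examined. For such genes the ± values are narrower than the spread between the mutant libraries. Genes 2-fold apart lay on all 5 nuclear chromosomes, at 1.18% to 1.64% higher and 0.651% to 0.819% lower of the genes measured on each.

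The genes behind the genotype names differed in opposite directions. PRMT3 (AT3G12270, chromosome 3, 3910481 to 3913376 in TAIR10.1) had 315 counts in rps2a2b and 132 in atprmt3, or 20.3 and 7.24 CPM, against 16.2 and 17.42 CPM in Col. The log2 ratio was 1.48 ± 0.37, a fold of 2.80 (95% exact interval 2.28 to 3.46, counting error only). An annotated gene on the opposite strand overlaps PRMT3, and the strand setting of the counting is not given in the sources used here. RPS2A (AT1G58380, chromosome 1, 21688935 to 21690290) had 167 counts in rps2a2b and 580 in atprmt3, or 10.7 and 31.8 CPM, against 22.8 and 21.8 CPM in Col. Its log2 ratio was -1.57 ± 0.31, and Col lay between the mutants. Of the 50-base stretches of its transcript 72.3% occur in no other gene's transcript, while for RPS2B (AT1G59359) the share is 0%, so the 0 counts of RPS2B in every library set no limit on it. RPS2C (AT2G41840) had 403 CPM in rps2a2b and 429 CPM in atprmt3 (log2 ratio -0.09 ± 0.06) and overlaps a gene on the same strand, and RPS2D (AT3G57490) stood at 24.4 and 22.8 CPM (0.10 ± 0.25).

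**Figure D1:**
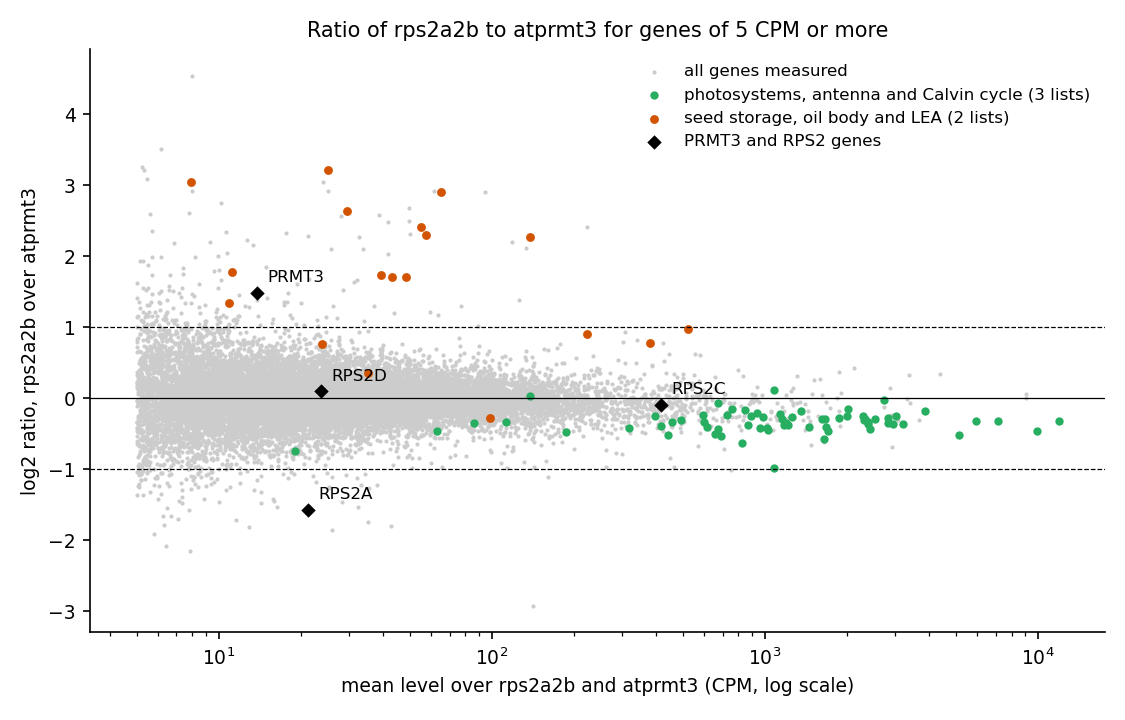
Log2 ratio of rps2a2b to atprmt3 (y axis) against the mean level over both libraries (x axis, CPM, log scale) for the genes of 5 CPM or more with a count in both mutant libraries; dashed lines mark 2-fold. The points of the seed lists reach 3.21, those of the photosynthesis lists lie between -0.98 and 0.11, and PRMT3 and RPS2A lie on opposite sides of 0.

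Seed maturation and oil use genes made up most of the highest ratios, with more transcript in rps2a2b than in atprmt3. Maturing embryos store cruciferins (12S globulins) and 2S albumins, coat their oil bodies with oleosins, and make late embryogenesis abundant (LEA) proteins and dehydrins that protect cells during drying. In Arabidopsis the programme is driven by ABI3, FUS3 and the LEC factors, acts with abscisic acid, and is normally shut off as the seedling grows. Of the 15 genes with the highest finite ratio at 20 CPM or more, 12 belonged to the seed and oil lists and families, which hold 0.643% of all genes at that level. The lists include oil mobilisation, so ICL and MLS, described below, are among the 12. They also include the regulators of the programme, a list drawn up after values were seen. The other seed and oil lists and families, too, were chosen with earlier results of these data known. Of the 44 genes at least 4-fold higher, 25 were such genes (56.8%), and of the 201 at least 2-fold higher, 33 were (16.4%). Among all measured genes 91 were such genes (0.59%). None of these 91 was at least 2-fold lower, beside 0.733% of all measured genes, a share at which few or none would be counted among 91.

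Among the storage proteins, PAP85 (AT3G22640), a vicilin-like globulin, had 45.3 CPM in rps2a2b and 4.88 in atprmt3, against 0.479 and 0.617 in Col. Its log2 ratio of 3.21 ± 0.40 was the highest finite one among genes of 20 CPM or more. SESA5 (AT5G54740), a 2S albumin, had 17.3 CPM in rps2a2b and 5.05 in atprmt3 (1.78 ± 0.43). The oleosin genes OLEO1 (AT4G25140) and OLEO2 (AT5G40420) had 74.3 and 66.1 CPM in rps2a2b, against 22.7 and 20.24 CPM in atprmt3, a log2 ratio of 1.71 in both. Both oleosin genes overlap a gene on the opposite strand, and Col lay below both mutants for each.

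Other storage genes differed less. CRA1 (AT5G44120) and CRU3 (AT4G28520), which encode cruciferins, were picked after their values were seen. CRA1 had 693 CPM in rps2a2b and 353 in atprmt3 (0.97 ± 0.06), and CRU3 had 482 and 280 CPM (0.78 ± 0.06). Both were under 2-fold, though CRA1 passed it with scaling by total counts (1.04). CRU2 (AT1G03880), a further cruciferin gene, had 48 counts in rps2a2b and 0 in atprmt3 and Col, at least 14.7-fold higher by the lower end of the exact 95% interval. Set against a floor of 3 counts in the atprmt3 library, the ratio is 18.8.

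Of the 14 genes of the seed storage and oil body list, 7 were measured, 5 were at least 2-fold higher and 0 lower, with a median of 1.71. Over all genes measured, 1.3% were at least 2-fold higher and 0.733% lower, with a median of -0.0071. Of the 7 below the level minimum, SESA4 had no read in any library, SESA2 had 78 counts in rps2a2b and 88 in atprmt3, and SESA3 had 2 and 11. The remaining oil body genes below the minimum had more reads in rps2a2b, with 93 against 31 counts for OLEO3 (AT5G51210), 111 against 46 for OLEO4 (AT3G27660), and 52 against 15 for CLO1 (AT4G26740), a caleosin. Summed over all 14 members the list reached 1419 CPM in rps2a2b and 702.5 CPM in atprmt3, against 44.3 and 48.9 CPM in Col. The sum was thus highest in rps2a2b, lower in atprmt3 and lowest in Col. CRA1 and CRU3, each under 2-fold as reported, supplied most of it in both mutants.

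The LEA list had a higher median than the storage list. EM1 (AT3G51810), encoding a small hydrophilic LEA protein, had 115 CPM in rps2a2b and 15.5 in atprmt3, against 0.0684 and 0.206 in Col, a log2 ratio of 2.90 ± 0.23. EM6 (AT2G40170), its close relative, had 14.1 CPM in rps2a2b and 1.70 in atprmt3 (3.05 ± 0.68). The dehydrin gene LEA (AT2G21490) had 50.9 and 8.23 CPM (2.63 ± 0.31), and LEA7 (AT1G52690) had 92.4 and 17.39 CPM (2.41 ± 0.22) and overlaps a gene on the opposite strand. In each of these 4 genes Col lay below both mutants.

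Of 13 LEA list members 11 were measured, 7 of them at least 2-fold higher and 0 lower, with a median of 2.27. The shares of all measured genes were 1.3% higher and 0.733% lower. Some members were close to equal or below 2-fold. LEA14 (AT1G01470), a LEA protein gene, had 89.5 CPM in rps2a2b and 108 in atprmt3 (-0.27 ± 0.12), and RAB18 (AT5G66400), a drought-responsive dehydrin, had 292 and 155 CPM (0.91 ± 0.08) with Col between the mutants at 186 and 192 CPM. RAB18 overlaps a gene on the opposite strand. M10 with 9 counts in rps2a2b and 7 in atprmt3, and SMP1 with 0 and 1, were below the minimum.

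The wider LEA and dehydrin family was found by product name. Of its 49 measured members 17 were at least 2-fold higher and 0 lower, beside 1.3% and 0.733% of all measured genes, while the median was 0.19. Among the highest were AT2G42560 with 167 CPM in rps2a2b and 22.2 in atprmt3 (2.91 ± 0.19) and AT3G53040 with 109 and 14.4 CPM (2.92 ± 0.23). AT3G22490, annotated as a seed maturation protein and overlapped on the opposite strand, had 9.65 and 1.04 CPM (3.21 ± 0.86), and XERO1 (AT3G50980), a dehydrin, had 9.78 and 1.15 CPM (3.09 ± 0.82). The lists overlap this family, so these counts are not independent of those above.

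Some cupins, a family already counted among the seed and oil families above, and a few genes outside them also had high ratios. Of 14 measured cupins 4 were at least 2-fold higher, 0 were lower and 6 were below 0, with a median of 0.13. Over all measured genes the shares were 1.3%, 0.733% and 51.0%. AT2G18540 and AT2G28490, of the cupin family to which storage globulins belong, had 44.3 and 84.1 CPM in rps2a2b, against 5.87 and 14.98 CPM in atprmt3. AT1G04560, an AWPM-19-like membrane protein, had 48.0 CPM in rps2a2b and 8.12 in atprmt3 (2.57 ± 0.32), with 1 count in each Col library. Between 5 and 20 CPM the highest finite ratio was that of AT1G15330, a cystathionine beta-synthase domain protein, with 15.3 and 0.658 CPM (4.54 ± 1.05).

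The regulators of the programme were mostly too low to compare. ABI3 (AT3G24650), a B3 transcription factor, had 8.10 CPM in rps2a2b and 3.18 in atprmt3, with 0.137 in each Col library, and a log2 ratio of 1.35 ± 0.56. ABI5 (AT2G36270), a bZIP factor that acts with it, had 15.6 and 9.16 CPM (0.77 ± 0.36). Of the other 8 regulators in the list, which was drawn up after values were seen, none was measured: ABI4 had 31 counts in rps2a2b and 2 in atprmt3, FUS3 had 7 and 14, and LEC1, LEC2 and BZIP67 had 0 in every library. Seed storage and LEA transcripts also serve as markers of embryo and seed, and the part that seed or embryo material in the harvest had in these values was not tested. In whole-seedling RNA fewer cells of a type and less RNA per cell cannot be told apart.

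**Figure D2:**
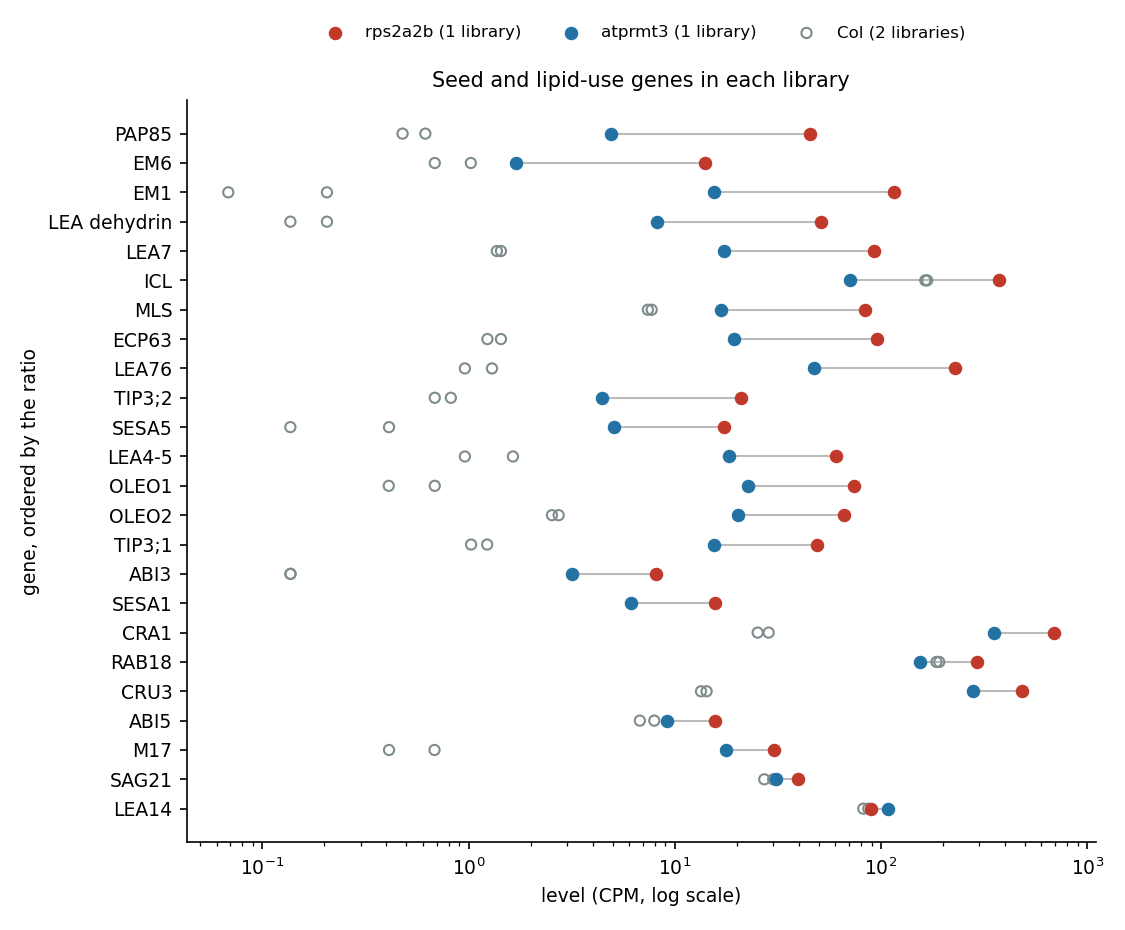
Level of seed and lipid-use genes in each library (x axis, CPM, log scale), with rps2a2b in red, atprmt3 in blue and both Col libraries as open circles; genes run down the page from the highest to the lowest ratio and the Col libraries of SESA1 are at 0 and not drawn. The rps2a2b point lies right of the atprmt3 point for every gene drawn but LEA14, and Col lies between the mutants for ICL and RAB18.

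Promoter windows of 4 of these genes are printed to show where motifs known from seed promoters lie. Each is the 250 bases upstream of the annotated gene start in TAIR10.1 (RefSeq), 5′ to 3′ on the gene's strand, and no annotated gene overlaps any of the windows. Capitals mark the RY motif CATGCA, to which B3 factors such as ABI3 bind, and the G-box CACGTG, to which bZIP factors such as ABI5 bind, each searched on both strands. The reverse complement of the RY motif is TGCATG, so a run of CATGCATG counts as 2 overlapping matches. The windows are chr4:12900180-12900429 on the plus strand for OLEO1, chr5:22239188-22239437 on the minus strand for SESA5, chr3:8013942-8014191 on the minus strand for PAP85 and chr2:16780369-16780618 on the minus strand for EM6.
OLEO1: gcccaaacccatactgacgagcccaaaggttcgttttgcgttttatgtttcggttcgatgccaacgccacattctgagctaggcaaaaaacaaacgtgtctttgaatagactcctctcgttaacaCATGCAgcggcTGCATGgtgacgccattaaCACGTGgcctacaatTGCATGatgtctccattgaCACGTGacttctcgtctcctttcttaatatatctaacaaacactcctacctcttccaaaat
SESA5: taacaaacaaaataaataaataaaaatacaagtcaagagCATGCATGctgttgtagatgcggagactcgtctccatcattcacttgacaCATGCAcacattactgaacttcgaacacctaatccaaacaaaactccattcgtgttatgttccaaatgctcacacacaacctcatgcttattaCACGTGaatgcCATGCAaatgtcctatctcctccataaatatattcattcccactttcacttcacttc
PAP85: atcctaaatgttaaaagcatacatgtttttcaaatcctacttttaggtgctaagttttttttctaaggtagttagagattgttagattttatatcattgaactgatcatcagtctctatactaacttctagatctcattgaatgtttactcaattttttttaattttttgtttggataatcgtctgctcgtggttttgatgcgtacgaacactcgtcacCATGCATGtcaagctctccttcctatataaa
EM6: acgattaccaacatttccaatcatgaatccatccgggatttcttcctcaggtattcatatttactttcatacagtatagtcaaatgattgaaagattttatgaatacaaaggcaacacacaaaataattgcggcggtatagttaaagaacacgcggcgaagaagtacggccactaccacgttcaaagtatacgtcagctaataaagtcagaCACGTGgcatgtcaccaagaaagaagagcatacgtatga
OLEO1 holds 3 RY motifs and 2 G-boxes, SESA5 holds 4 and 1, PAP85 holds 2 and 0, and EM6 holds 0 and 1. The first base of the nearest match lies 61 bases before the start in OLEO1, a G-box, 29 in PAP85, an RY motif, and 39 in EM6, a G-box.

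Across the genes with a promoter window, an RY motif stood in 19.9% of the genes at least 2-fold higher in rps2a2b (38 of 191) and in 8.93% of those lower, against 7.13% of all 15210 windows. A G-box stood in 27.2% of the higher genes (52 of 191) and 11.6% of the lower ones, against 7.77% of all. All 7 measured seed storage and oil body genes held an RY motif, and 14 of 49 of the LEA and dehydrin family held a G-box (28.6%). EM1, with one of the largest ratios, held neither. Among the lower genes the shares of P1BS (GNATATNC) and of the heat shock element (GAANNTTC) were 12.5% and 16.1%, against 5.31% and 8.84% of all windows. A match describes letters in a window and is neither a binding site nor a cause.

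**Figure D3:**
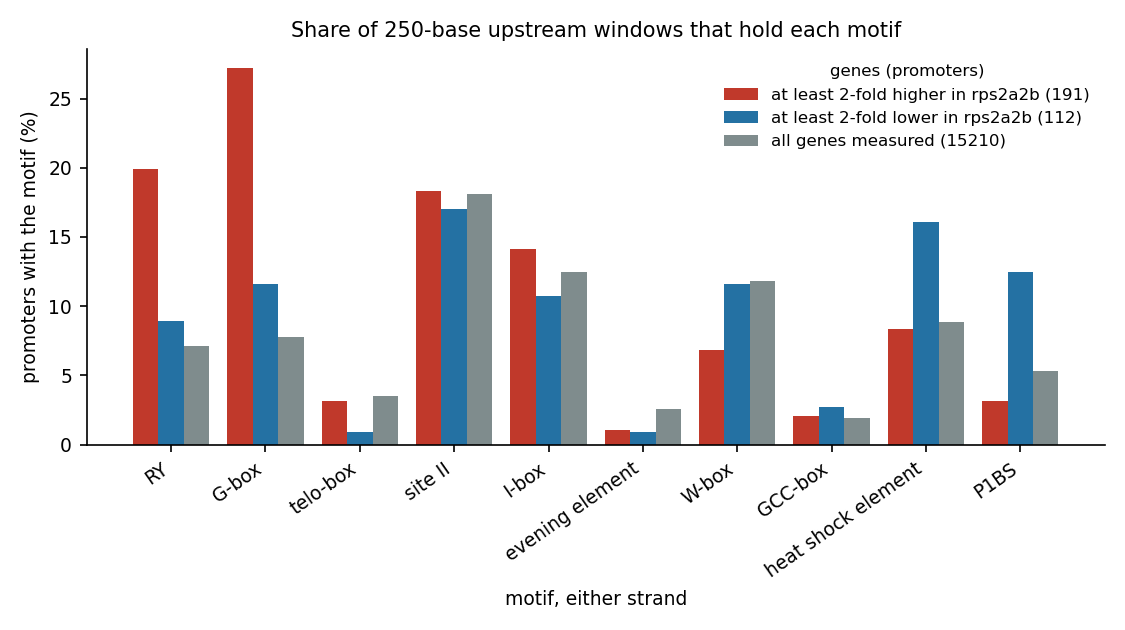
Share of 250-base upstream windows (y axis, percent) with each of 10 motifs on either strand (x axis) in genes at least 2-fold higher in rps2a2b, genes at least 2-fold lower and all genes measured. The tallest bars of the higher genes are the G-box at 27.2% and RY at 19.9%, while site II lies at 18.3% of the higher genes and 18.1% of all.

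Among the genes for the use of stored oil, the glyoxylate cycle enzymes differed most. Germinating seedlings break oil down by beta-oxidation in peroxisomes and pass the carbon through the glyoxylate cycle, whose own enzymes are isocitrate lyase and malate synthase. ICL (AT3G21720) had 374 CPM in rps2a2b and 70.5 in atprmt3, against 167 and 164 in Col, a log2 ratio of 2.41 ± 0.11. MLS (AT5G03860) had 83.5 CPM in rps2a2b and 16.7 in atprmt3, against 7.73 and 7.41 in Col (2.32 ± 0.23). For ICL Col lay between the mutants, and for MLS it lay below both. The other 11 genes of the list stayed within 2-fold, from -0.40 for the oil body lipase SDP1 (AT5G04040) to 0.41 for the beta-oxidation enzyme MFP2 (AT3G06860), and the list median was 0.12. PCK1, which carries the carbon on towards sugar, had 561 CPM in rps2a2b and 443 in atprmt3 (0.34 ± 0.05).

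The vacuolar water channels moved in both directions. TIP3;1 (AT1G73190) and TIP3;2 (AT1G17810), the channels of seed storage vacuoles, had 48.9 and 20.9 CPM in rps2a2b, against 15.4 and 4.44 CPM in atprmt3, log2 ratios of 1.67 and 2.23. The channels of vegetative vacuoles were below 0. TIP2;1 (AT3G16240) had 314 CPM in rps2a2b and 612 in atprmt3, against 965 and 973 in Col (-0.96 ± 0.06), and TIP1;2 (AT3G26520) had 1306 and 2000 CPM, against 2017 and 1997 in Col (-0.62 ± 0.03). Of 6 measured channels in the list, 2 were at least 2-fold higher, 0 were at least 2-fold lower and 4 were below 0. Over all measured genes the shares were 1.3%, 0.733% and 51.0%. The list was drawn up after values were seen, and both TIP3 genes overlap a gene on the opposite strand, as does TIP2;1. Of TIP3;1 and TIP3;2 78.7% and 59.5% of the sequence is unique.

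Photosynthesis genes differed by little each and nearly all in the same direction. The products of these nuclear genes build the photosystems, link them by electron carriers, gather light, or fix carbon in the chloroplast. All 30 genes of the photosystem and electron transport list were below 0, with a median of -0.35 and a range from -0.98 to -0.15. All 17 genes of the Rubisco small subunit and Calvin cycle list were below 0, with a median of -0.37, as were 18 of 20 light-harvesting antenna genes, with a median of -0.28. None of the 67 genes was 2-fold apart in either direction. The share of all measured genes below 0 was 51.0%. The median was -0.0071 over all measured genes and -0.088 over those at 200 CPM or more.

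PSBO2 (AT3G50820), a manganese-stabilising subunit of photosystem II, differed the most, with 725 CPM in rps2a2b and 1434 in atprmt3, against 1370 and 1400 in Col (-0.98 ± 0.04). Its paralog PSBO1 (AT5G66570) had 5298 CPM in rps2a2b and 6580 in atprmt3 (-0.31 ± 0.02). FD2 (AT1G60950), the leaf ferredoxin that takes electrons from photosystem I, had 645 and 1002 CPM (-0.64 ± 0.04). PETC (AT4G03280), the Rieske protein of the cytochrome complex, lay nearest to 0 at 720 and 800 CPM (-0.15 ± 0.04).

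Rubisco small subunit genes are near-identical copies, so reads may be split between them. RBCS1A (AT1G67090) had 8363 CPM in rps2a2b and 11470 in atprmt3 (-0.46 ± 0.01), and RBCS3B (AT5G38410) had 4230 and 6046 CPM (-0.52 ± 0.02). In the antenna, LHCB4.3 (AT2G40100), a minor photosystem II antenna protein, had the lowest ratio, with 14.2 CPM in rps2a2b and 23.8 in atprmt3 (-0.75 ± 0.29). LHCB5 (AT4G10340) had 2071 and 2801 CPM (-0.44 ± 0.03). The 2 antenna genes above 0 were LHCB1.1 (AT1G29920) at 0.11 ± 0.04 and LHCB2.3 (AT3G27690) at 0.04 ± 0.10. LHCB1 and LHCB2 copies also share sequence, with 79.5% of LHCB1.1 and 61.4% of LHCB2.3 unique, and LHCB2.3 overlaps a gene on the opposite strand.

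Summed over its list, antenna transcript stood at 42146 CPM in rps2a2b and 51029 in atprmt3, against 81662 and 81747 in Col. The corresponding sums for the photosystem list were 34175 and 43622 CPM, against 48269 and 48284 in Col, and for the Calvin cycle list 31552 and 41233 CPM, against 36005 and 36144 in Col. In the Calvin cycle list Col thus lay between the mutants. Chlorophyll synthesis followed with 13 of 16 measured genes below 0 and a median of -0.20. GUN4 (AT3G59400), which activates magnesium chelatase, was the highest of them at 0.20 ± 0.12, but overlaps a gene on the opposite strand and has 28.1% unique sequence. By contrast, the 65 measured genes of the plastid genome had a median of 0.15, with 38 above 0. Plastid transcripts largely lack the poly(A) tails of nuclear messenger RNA.

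Transcript length moved with the contrast. The median log2 ratio was -0.094 in the fifth of genes with the shortest transcripts and 0.082 in the fifth with the longest. With the trend on length and GC content removed, the medians of the 3 photosynthesis lists were -0.27, -0.36 and -0.21, in the order photosystems, Calvin cycle and antenna, and 30, 17 and 16 genes were below 0. Markers of organs gave mixed values. The root hair list summed to 188 CPM in rps2a2b and 131 in atprmt3, with 7 of 9 genes measured and a median of 0.26. Of these sums PRP3 gave 97.7 and 54.3 CPM. The root meristem and endodermis list summed to 3842 and 3088 CPM, with a median of -0.22 over 5 of 8 genes. Most of its sum was PYK10 (AT3G09260) at 3760 and 2997 CPM, which overlaps a gene on the opposite strand. The leaf polarity list had a median of 0.04 over 13 genes. The stomatal lineage had a median of 0.03 over 9 of 13 genes and the shoot meristem list one of 0.26 over 4 of 10. No floral organ gene of 8 was measured. The part of organ proportions in the photosynthesis values was not tested.

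**Figure D4:**
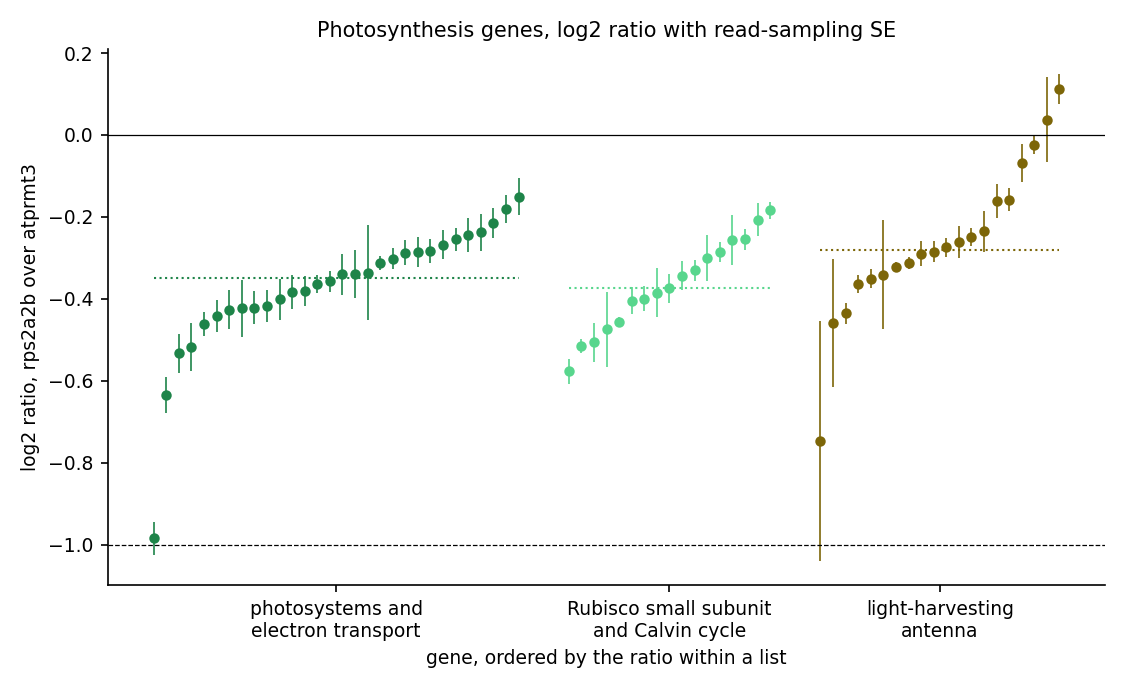
Log2 ratio of rps2a2b to atprmt3 (y axis) of each gene in the photosynthesis lists, ordered within its list (x axis); bars are widened read-sampling standard errors, dotted lines are list medians and the dashed line marks 2-fold lower. All points but 2 antenna genes lie below 0, and PSBO2 at -0.98 lies closest to the 2-fold line.

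Ribosomal protein genes were close to equal in the mutants. Of 96 measured genes whose products are named for small-subunit proteins (S), 76 were below 0 with a median of -0.10, and of 191 named for large-subunit proteins (L or P), 132 were below 0 with a median of -0.09. These families include some organellar proteins. The median of all genes was -0.015 at 50 to 200 CPM and -0.088 at 200 CPM or more. With the length and GC trend removed the medians of the ribosomal families were -0.045 and -0.016, with 56 of 96 and 103 of 191 below 0, against 51.0% of all measured genes before that correction. With scaling by total counts 59 and 102 were below 0. Of the 96 genes named S, 2 were at least 2-fold lower and 0 higher, beside 0.733% and 1.3% of all measured genes. These were RPS2A and AT5G35530, a ribosomal protein S3 gene. AT5G35530 had 102 CPM in rps2a2b and 220 in atprmt3, against 164 and 158 in Col (-1.11 ± 0.11). A second S3 gene, AT3G53870, had 96.5 CPM in rps2a2b and 189 in atprmt3, against 126 and 133 in Col (-0.97 ± 0.11). Col lay between the mutants for these S3 genes. The next largest ratio in size among the S genes was that of RPS19 (AT5G47320, -0.67 ± 0.25), so any other measured S3 gene lay nearer to 0. RPS3 lies beside RPS2 at the mRNA entrance of the small subunit. Of the 191 genes named L or P, 1 was at least 2-fold higher and 1 lower, beside the same 1.3% and 0.733% of all measured genes. AT5G18790, annotated as an L33 family protein, was the higher one, at 7.01 and 3.13 CPM (1.16 ± 0.58). AT5G20180, annotated as L36, was the lower one, at 3.67 and 7.41 CPM (-1.01 ± 0.56). Whether either belongs to an organellar ribosome was not examined. The call of AT5G20180 was lost with scaling by total counts (-0.95) and with the trend removed (-0.91). AT5G18790 and AT5G20180 both overlap a gene on the opposite strand.

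All 10 nucleolus and ribosome assembly genes were within 2-fold, with a median of 0.12. CBF5 (AT3G57150), the pseudouridine synthase of the nucleolus, had 201 CPM in rps2a2b and 165 in atprmt3 (0.29 ± 0.09), and FIB2 (AT4G25630), a fibrillarin that methylates ribosomal RNA, had 43.3 and 54.9 CPM (-0.34 ± 0.18) and overlaps a gene on the same strand. NUC2 (AT3G18610), a nucleolin, stood at 18.9 CPM in rps2a2b and 18.5 in atprmt3 (0.03 ± 0.28), against 2.74 and 2.67 CPM in Col. Of 35 measured histone genes 27 were below 0, with a median of -0.22 and none 2-fold apart. With the length and GC trend removed 21 of the 35 were below 0 and the median was -0.15, beside 51.0% of all measured genes below 0 before that correction. The proteasome (50 genes) had a median of -0.0042, and DNA replication (12 genes) one of 0.0026.

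Lectins and extensins, proteins that bind sugars and build walls, were mostly above 0. Of 16 measured mannose-binding and jacalin lectins 15 were above 0 and 4 at least 2-fold higher, with a median of 0.47. Over all measured genes 49.0% were above 0 and 1.3% at least 2-fold higher. AT1G52100 had 110 CPM in rps2a2b and 44.7 in atprmt3, against 58.3 and 58.6 in Col (1.29 ± 0.15), while JAL23 (AT2G39330) had 37.2 and 15.1 CPM. Of 35 measured extensins, hydroxyproline-rich glycoproteins that cross-link in the wall, 24 were above 0 and 4 at least 2-fold higher, with a median of 0.28, beside the same 49.0% and 1.3% of all genes. EXT13 (AT5G35190) had 61.1 CPM in rps2a2b and 26.5 in atprmt3, against 47.05 and 44.6 in Col (1.21 ± 0.20), and EXT6 (AT2G24980) had 88.0 and 39.01 CPM (1.17 ± 0.16). With the length and GC trend removed, 2 of the 35 extensins stayed at least 2-fold higher. Both families were drawn up after values were seen. Col lay between the mutants for EXT13 and AT1G52100. The root hair proline-rich gene PRP3 (AT3G62680) ran the same way at 97.7 and 54.3 CPM (0.85 ± 0.14).

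A sugar-induced transporter and single lipid transfer genes were also at least 2-fold higher in rps2a2b. GPT2 (AT1G61800), a plastid glucose-6-phosphate translocator induced by sugar, had 26.4 CPM in rps2a2b and 9.44 in atprmt3, against 2.12 and 2.74 in Col (1.49 ± 0.32). LTP4 (AT5G59310), a lipid transfer protein, had 182 and 69.95 CPM, against 26.3 and 28.0 in Col (1.38 ± 0.12). For both genes Col lay below both mutants. The lipid transfer family as a whole did not follow LTP4: of 53 measured genes 31 were below 0, with a median of -0.08, 2 at least 2-fold higher and 1 lower, beside 51.0%, 1.3% and 0.733% of all measured genes. The lower one was AT4G22517, with 19.9 CPM in rps2a2b and 46.6 in atprmt3 (-1.23 ± 0.23). It overlaps a gene on the opposite strand, and 57.3% of its sequence is unique.

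The 113 genes at least 2-fold lower in rps2a2b included no measured gene of the seed and oil lists, which hold 0.59% of all measured genes. Of the 113, 72 had Col between the mutants, 29 had Col above both and 12 below both. The lowest ratio at 20 CPM or more was that of AT4G29020 (chromosome 4, 14304921 to 14305841), a glycine-rich protein gene, with 32.9 CPM in rps2a2b and 250 in atprmt3, against 161 and 157 in Col, a log2 ratio of -2.92 ± 0.16. GRP5 (AT3G20470), another glycine-rich protein gene, had 2.89 and 12.8 CPM, against 3.90 and 2.95 in Col (-2.14 ± 0.58). Col sat between the mutants for AT4G29020 and with rps2a2b for GRP5. Of 30 measured glycine-rich protein genes 2 were at least 2-fold lower and 1 higher, beside 0.733% and 1.3% of all measured genes, with a median of -0.09.

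Further down the list, PRF1 (AT2G19760), the actin-binding profilin 1, had 16.3 CPM in rps2a2b and 54.2 in atprmt3, against 45.5 and 45.2 in Col (-1.74 ± 0.25). AT2G46170, of the reticulon family that shapes the endoplasmic reticulum, had 11.3 and 40.5 CPM, against 28.3 and 31.0 in Col (-1.85 ± 0.30). AT5G28750, annotated as a Hcf106-like protein of sec-independent translocation, had 19.2 and 66.6 CPM, against 49.4 and 48.6 in Col (-1.80 ± 0.23). The last 2 genes each overlap a gene on the opposite strand, and Col lay nearer to atprmt3 for all 3 genes.

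A pair of genes known to set the products of glucosinolate breakdown had the following values. ESP (AT1G54040), the epithiospecifier protein, which directs breakdown towards nitriles, had 20.198 CPM in rps2a2b and 43.9 in atprmt3, against 39.4 and 40.1 in Col (-1.12 ± 0.24). ESM1 (AT3G14210), the epithiospecifier modifier, picked after its values were seen, had 500 and 1006 CPM, against 426 and 433 in Col (-1.01 ± 0.05). ESM1 lies at the threshold, and its log2 ratio was -0.94 with scaling by total counts, under 2-fold. Col lay near atprmt3 for ESP and near rps2a2b for ESM1. The synthesis lists stayed near 0, with a median of -0.09 over 19 aliphatic genes and -0.0051 over 7 indolic genes.

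Metal genes moved in both directions. Of 18 measured genes of the iron and copper list 2 were at least 2-fold higher and 2 lower, beside 1.3% and 0.733% of all measured genes. IRT1 (AT4G19690), the iron uptake transporter of the root, had 2.44 CPM in rps2a2b and 10.4 in atprmt3, against 3.21 and 2.47 in Col (-2.08 ± 0.63), and FRO2, its partner iron reductase, was below the minimum at 1.67 and 6.75 CPM. CSD2 (AT2G28190), the plastid copper/zinc superoxide dismutase, had 8.62 and 23.0 CPM, against 17.85 and 17.76 in Col (-1.42 ± 0.35). FER2 (AT3G11050), the ferritin of seeds, had 15.3 and 3.35 CPM, against 0.684 and 0.754 in Col (2.19 ± 0.51), and overlaps a gene on the same strand. FRO4 (AT5G23980), a copper reductase, had 11.9 and 5.16 CPM, against 25.9 and 28.5 in Col (1.21 ± 0.45).

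Hormone and stress lists differed little. Of 18 measured jasmonate genes 15 were below 0, with a median of -0.17, beside 51.0% of all measured genes below 0. With scaling by total counts 13 were below 0, and with the length and GC trend removed 14 were. LOX4 (AT1G72520), a lipoxygenase, was the sole jasmonate gene 2-fold apart at 4.05 CPM in rps2a2b and 8.39 in atprmt3 (-1.05 ± 0.53). That call was lost with scaling by total counts (-0.98). Of 8 measured heat shock genes 7 were above 0, with a median of 0.28 and none 2-fold apart, beside 49.0% of all measured genes above 0. With the length and GC trend removed 2 of the 8 were below 0. HSP70-4 (AT3G12580) had 163 and 119 CPM (0.45 ± 0.10). Within the cold and abscisic acid list (20 genes, median -0.13), COR15B (AT2G42530), a chloroplast protein made in the cold, had 110 and 204 CPM (-0.89 ± 0.10), while RD29B (AT5G52300), induced by abscisic acid, had 198 and 124 CPM (0.68 ± 0.10). COR15B overlaps a gene on the opposite strand, and 72.7% of its sequence is unique. In the clock list (16 genes, median -0.05) ELF4 (AT2G40080), of the evening complex, was the sole gene 2-fold apart, at 18.7 and 39.6 CPM (-1.08 ± 0.25), a call lost with the length and GC trend removed (-0.96). Medians lay within 0.12 of 0 for early flavonoid genes, late anthocyanin genes, phosphate starvation, auxin response, auxin transport, salicylic acid and defence, mitosis and the lignin pathway.

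**Figure D5:**
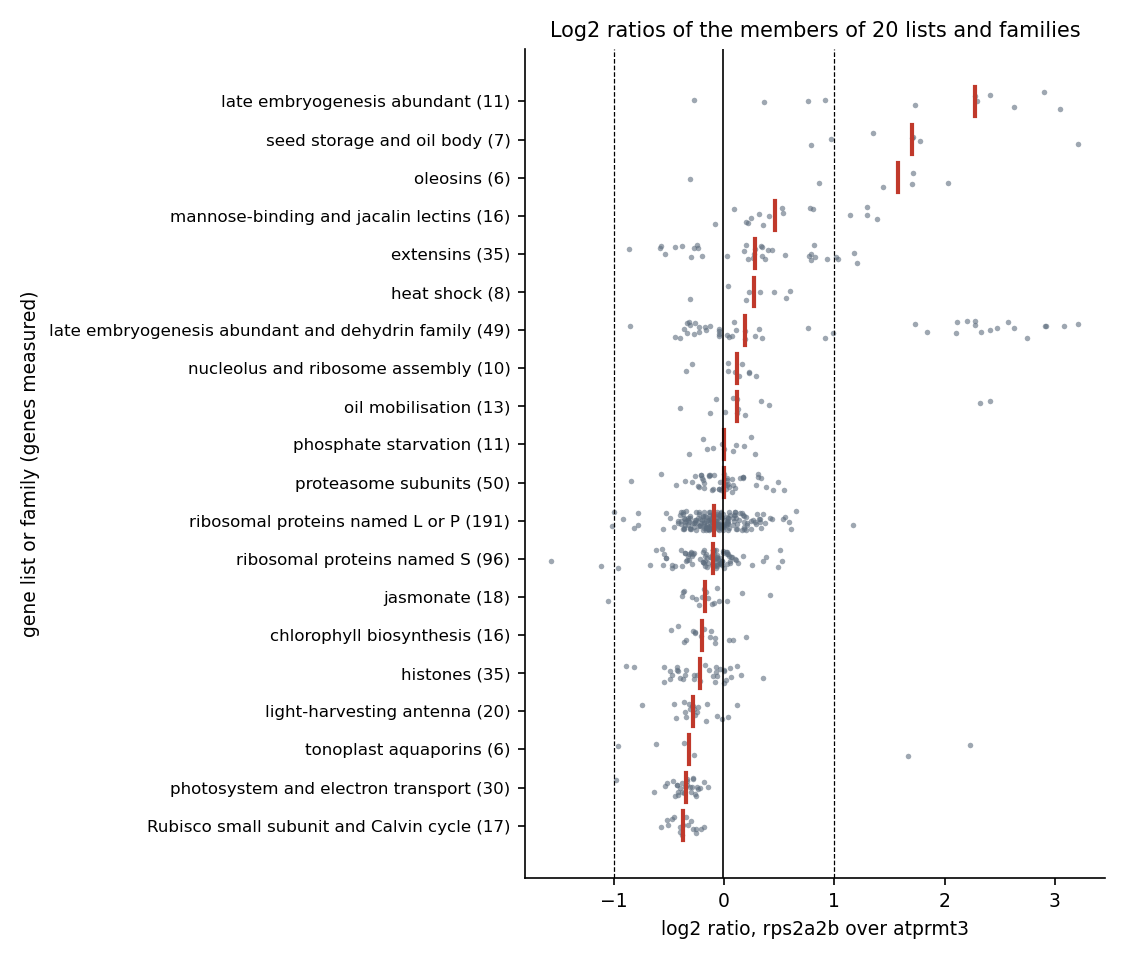
Log2 ratio of rps2a2b to atprmt3 (x axis) for the measured members of 20 lists and families (y axis, number of genes in brackets); red bars are medians, the solid line is the median of all genes measured and dashed lines mark 2-fold. LEA and seed storage medians lie at 2.27 and 1.71, lectins at 0.47, and the Calvin cycle list at -0.37.

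Of the 201 genes higher in rps2a2b, Col was below both mutants for 101, between them for 84 and above both for 16. The 33 seed and oil genes among them had Col below both in 32 cases. Of the other 168, which had a median level of 11.6 CPM in rps2a2b and 4.33 in atprmt3, Col was below both for 69 and between for 83. Col lay above both mutants for the remaining 16 of the 168.

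A locus on chromosome 2 had no read in atprmt3 alone. AT2G06845 (chromosome 2, 2753443 to 2756008), annotated as a beta-galactosidase related protein, had 809 counts in rps2a2b and 0 in atprmt3, against 1285 and 1301 in Col, at least 257-fold higher in rps2a2b by the lower end of the exact 95% interval. Set against a floor of 3 counts in the atprmt3 library, the ratio is 316. Of its sequence 72.95% is unique. The overlapping noncoding gene AT2G05015 on the opposite strand (2753377 to 2754065) had 86 counts in rps2a2b and 0 in atprmt3, against 78 and 68 in Col. XTH4 (AT2G06850), a cell wall xyloglucan-modifying enzyme gene that begins 7441 bases beyond AT2G06845, had 91.7 CPM in rps2a2b and 171 in atprmt3, against 93.4 and 99.9 in Col (-0.90 ± 0.11). The atprmt3 library was thus the one that stood apart at these genes. Among genes with 0 counts in rps2a2b, MYB58 (AT1G16490), a regulator of lignin genes, had the most reads elsewhere, at 41 in atprmt3 and 17 and 22 in Col, but 7.68% of its sequence is unique.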

How the data were processed

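The authors deposited raw counts of reads for each gene, without normalization. Per the labels' protocols, Trizol RNA went into dUTP libraries that keep the strand. The submitters' processing notes name TopHat2, HTSeq, edgeR and the build TAIR10. Versions, read length and strand setting are not given in the sources used here. Rows that name no gene were dropped. In rps2a2b and atprmt3, reads on no gene were 1.80% and 1.37%. Reads on several genes were 2.38% and 2.25%, and reads with several alignments 7.13% and 6.74%. These are shares of the reads on genes and in these classes together, and any other dropped rows are left out of that total. Unstranded counting would mix overlapping genes on opposite strands.

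TMM factors from the mutant libraries (1.02 and 0.977, edgeR 4.0.16 in R 4.3.3) scaled the counts to CPM. Ratios are plain. Col levels were brought to the same scale with factors from all 4 libraries. A gene was measured at a mean of 5 CPM and called at 2-fold. Intervals are exact (Clopper-Pearson, 95%) and cover counting error only, as do floors of 3 counts, which correspond to 0.193 CPM in rps2a2b and 0.165 CPM in atprmt3. The variance factor is the mean chi-square per gene between the mutants at 10 to 99 summed counts. It also holds real differences and was chosen after seeing the data. With 1 library a group no test was made.

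Annotation came from RefSeq TAIR10.1, which matched 33056 of 33341 identifiers. Unique sequence is the share of a transcript's 50-base stretches found in no other gene's transcript. The 45 lists and 36 families, as well as the comparison, were chosen with earlier results of these data known. Named genes are the target genes, the 15 highest and 15 lowest ratios at 20 CPM or more, the 5 highest and lowest at 5 to 20 CPM, up to 4 genes with the largest ratios per list or family, and up to 5 genes with 0 counts in one mutant; from these the text takes examples. CRA1, CRU3, SESA1 to SESA4, OLEO3, OLEO4, CLO1, LEA14, RAB18, M10, SMP1, the unmeasured regulators, PCK1, PSBO1, PETC, RBCS1A, LHCB1.1, LHCB2.3, GUN4, NUC2, ESM1 and FRO2 fall outside the rule and were chosen after their values were seen. The computation was tested on simulated data that held counting noise alone, so that test does not bear on the intervals or ± values at the wider spread of these data.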

Additional observations from a re-analysis of the deposited data

How the results depend on the processing

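As reported, 201 genes were at least 2-fold higher and 113 at least 2-fold lower in rps2a2b. A minimum mean of 1 CPM gave 736 and 534, a minimum of 20 CPM 47 and 21, and no filter 2208 and 1957. A fold of 1.5 gave 778 and 654, and a fold of 4 gave 44 and 3. Among 10065 genes with no overlapping gene and at least 90% unique sequence, 134 and 72 remained past 2-fold, and with a 95% interval from the widened standard error wholly past 2-fold 53 and 6 did; both settings, and leaving out the seed and oil genes (168 and 113), were chosen after seeing the data. DESeq2 size factors gave 201 and 113.

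The LEA median was 2.00 with a minimum of 20 CPM or with no filter, and the seed storage median 1.35 over unique, non-overlapping genes. Over such genes the antenna and Calvin cycle medians were -0.35 and -0.32. Scaling by total counts gave -0.21, -0.28 and -0.31 for antenna, photosystems and Calvin cycle, and removing the length and GC trend gave -0.21 and -0.27 for antenna and photosystems. The cause was not tested. Over 323 named genes, 1906 single-gene values kept their side of 2-fold, 14 fell below it and 10 passed it. In 2 genes, with reported ratios of at most 0.055 in size, 1 value each changed sign, and in none of the 91 genes 2-fold apart.

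No paired analysis was possible because each mutant has 1 library. Leaving out a replicate was not run for the same reason. At 5 to 10 CPM a difference of 2-fold was reached by 6.35% of genes, so single low genes are the least certain.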
